A study of Mus musculus with 16 samples.

Results

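The angiotensin and kinin system genes described here are Agt, Ace, Agtr1a, Agtr2, Enpep, Kng1, Kng2, Bdkrb1 and Bdkrb2, 9 genes chosen by symbol from a table of 46206 distinct symbols. All 9 were found, and where a symbol stood on more than 1 row the row with the highest mean was taken. The study looked for mouse fat that is beige by nature and sequenced the RNA of 16 libraries. Each of these depots had 4: epididymal white fat (eWAT, visceral, beside the epididymis), inguinal white fat (iWAT, under the skin of the groin), fat of the thigh (tAT) and brown fat (BAT). Sex (male), strain (C57BL66/J) and a high-fat diet that made the mice obese were shared by all groups, so no lean group is compared here. Age is not in the labels, nor is it said that each library had its own mouse, and p-values therefore cover the spread among libraries, which may be technical.

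Angiotensinogen, the product of Agt, is a secreted protein that renin cuts to angiotensin I, and angiotensin-converting enzyme, the product of Ace, turns this into the vasoconstrictor angiotensin II. Aminopeptidase A, encoded by Enpep, trims angiotensin II to angiotensin III, and the hormone acts through type 1 receptors (Agtr1a and, in rodents, Agtr1b) and the type 2 receptor (Agtr2). Kininogens, encoded in the mouse by Kng1 and Kng2, are cut by kallikreins to kinins such as bradykinin, a vasodilator. Bradykinin acts on the constitutive B2 receptor (Bdkrb2). The B1 receptor (Bdkrb1), known to be induced in inflammation, is the other receptor of the kinin system. Angiotensin-converting enzyme also breaks down bradykinin, which joins the pathways. The liver is the main source of circulating angiotensinogen and kininogen, and white adipocytes are known to make angiotensinogen.

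RefSeq promoter windows on GRCm38.p6, from 250 bases before to 50 bases after the annotated start, were matched by symbol for 6 of the 9 genes (Agt, Ace, Agtr2, Enpep, Kng2 and Bdkrb2). The windows of the 4 genes that carry the depot differences below are printed 5′ to 3′ in the direction of transcription, for the first listed start of Ace. Capitals mark exact matches, on either strand, to TATAAA, the core element bound by TBP, to CCAAT, bound by NF-Y, or to AGGTCA, the half-site of many nuclear receptors. In these windows no match overlapped another.
Agt (chr8:124569657-124569956, minus strand): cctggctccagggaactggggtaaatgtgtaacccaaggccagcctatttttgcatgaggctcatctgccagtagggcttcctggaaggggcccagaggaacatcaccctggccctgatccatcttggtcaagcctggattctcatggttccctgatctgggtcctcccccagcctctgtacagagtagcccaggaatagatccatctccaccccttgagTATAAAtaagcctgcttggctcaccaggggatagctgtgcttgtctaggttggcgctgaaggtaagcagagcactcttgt
Ace (chr11:105967698-105967997, plus strand): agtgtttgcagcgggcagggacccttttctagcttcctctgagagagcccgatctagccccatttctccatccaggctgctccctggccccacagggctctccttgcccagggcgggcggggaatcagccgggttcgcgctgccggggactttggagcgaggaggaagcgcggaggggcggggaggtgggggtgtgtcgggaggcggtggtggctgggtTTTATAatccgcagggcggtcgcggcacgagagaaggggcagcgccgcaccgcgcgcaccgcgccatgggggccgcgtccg
Enpep (chr3:129332700-129332999, minus strand): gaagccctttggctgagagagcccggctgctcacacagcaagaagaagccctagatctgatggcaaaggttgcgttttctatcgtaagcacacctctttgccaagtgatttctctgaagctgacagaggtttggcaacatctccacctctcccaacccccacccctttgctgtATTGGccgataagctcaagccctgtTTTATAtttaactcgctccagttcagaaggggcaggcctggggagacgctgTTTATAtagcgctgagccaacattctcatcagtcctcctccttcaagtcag
Kng2 (chr16:23029052-23029351, minus strand): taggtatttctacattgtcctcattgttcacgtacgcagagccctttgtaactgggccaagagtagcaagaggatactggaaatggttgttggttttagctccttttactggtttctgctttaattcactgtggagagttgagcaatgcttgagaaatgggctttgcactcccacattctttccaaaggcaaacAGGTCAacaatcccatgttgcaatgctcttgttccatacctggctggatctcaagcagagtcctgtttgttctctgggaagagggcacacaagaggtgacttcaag
The letters TATAAA were held by 13.6% of all 32851 RefSeq promoter windows, CCAAT by 37.4% and AGGTCA by 16.3%. Agt had TATAAA 30 bases before the start, Ace had it on the opposite strand 31 bases before, and Enpep had it on the opposite strand 52 bases before and across the start, with CCAAT on the opposite strand 77 bases before. Kng2 had AGGTCA 56 bases before its start. These matches are descriptions of the letters only.

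Values are FPKM as deposited, that is fragments divided by gene length and by the mapped fragments of the library, so levels of different genes can be compared per length. Levels are given as mean ± SD with n = 4, and differences are on the log2(FPKM + 1) scale with a standard error (SE) and an adjusted p-value from limma. A gene passed at an adjusted p under 0.05, over the 14991 genes that reached 1 FPKM in 4 or more libraries. Summed FPKM per library ran from 818815 to 1074123. The low values of genes with a single annotated transcript fell on steps that imply about 20900000 to 30200000 fragments per library, an estimate and not a deposited depth. The brown adipocyte markers, 8 of 8 measured, summed to 10920 to 14460 FPKM in BAT, 909.9 to 2620 in tAT, 110.4 to 198 in iWAT and 31.0 to 64.9 in eWAT, with Zic1 at 0 in tAT. Skeletal muscle transcripts, 12 of 12 markers measured, were abundant in tAT 1, 2 and 4 (sums of 28050, 28190 and 17860 FPKM) but not in tAT 3 (308), and stood at 3354 and 2717 FPKM in BAT 3 and 4 and at 145 and 126 in BAT 1 and 2. These 5 are called the muscle-rich libraries. Leaving them out left 1 tAT and 2 BAT libraries, so p-values given without them take the spread from the other depots and assume that the lone tAT 3 varies like those. The median gene was lower in BAT than in iWAT by 0.54, and median-of-ratios scaling, which sets that shift near 0, turned the split of calls from 1911 higher and 9225 lower to 4695 higher and 4911 lower. BAT was likewise lower than eWAT by 0.52 and tAT higher than BAT by 0.44 at the median gene, and scaling turned the splits from 2275 higher and 8844 lower to 5182 and 5231, and from 8783 higher and 1683 lower to 4172 and 3939. Differences from BAT are therefore read against those medians. Against iWAT the median tAT gene was lower by 0.11, and the split of 1575 higher and 4400 lower became 2436 and 3002, while against eWAT 3242 higher and 5403 lower became 4168 and 4501.

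Agt (ENSMUSG00000031980.9, mm10 chromosome 8, 124556534 to 124569706, minus strand) had the widest spread of levels among the angiotensin genes, falling in steps from eWAT through iWAT and tAT to BAT. The eWAT libraries held 116, 129, 117 and 73.5 FPKM. The iWAT libraries held 16.2, 5.27, 16.4 and 16.4 FPKM, the tAT libraries 3.06, 2.35, 1.46 and 2.63, and the BAT libraries 0.258, 0.280, 0.209 and 0.194. No library of one depot reached into the range of another, although iWAT 2 lay far below the other inguinal libraries. Means were 109 ± 24.3 in eWAT, 13.6 ± 5.53 in iWAT, 2.37 ± 0.676 in tAT and 0.236 ± 0.0406 in BAT (n = 4 each), a ratio of 462 between eWAT and BAT. All 6 depot pairs passed. Agt was higher in eWAT than in iWAT by 3.0 (SE 0.28, adjusted p = 5.14e-06, 8.02-fold) and different in tAT from iWAT by -2.02 (SE 0.28, adjusted p = 9.31e-05), with iWAT 5.72-fold above tAT. It was higher in tAT than in BAT by 1.43 (SE 0.28, adjusted p = 0.000389, 10.1-fold), against a median gene of 0.44, and by 2.84 with a pseudocount of 0.1. Without the muscle-rich libraries the tAT difference from BAT was 0.95 and did not pass (adjusted p = 0.213). The low BAT values rested on roughly 9.3 to 14.6 fragments each, by the step estimate and the annotated transcript length of 1.891 kb.

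Macrophage markers fell through the depots in the same order as Agt, and other lists did so in part. The 10 macrophage markers, all measured, summed to 537 to 1353 FPKM in eWAT, 209 to 427 in iWAT, 70.2 to 127 in tAT and 9.60 to 14.3 in BAT, with none at 0 throughout a depot. The 8 mesothelial markers, all measured, summed to 64.5 to 92.0 FPKM in eWAT against 1.16 to 1.33 in iWAT, 0.775 to 1.85 in tAT and 0.504 to 0.749 in BAT. Wt1 was at 0 in every iWAT library, Msln, Upk1b and Wt1 in every tAT library, and Upk1b, Krt8 and Wt1 in every BAT library. Epididymal and testicular markers, 8 of 8 measured with Lcn9 at 0, summed to 24.7, 1.23, 369.7 and 1.70 FPKM in eWAT 1 to 4 and to 0.2593 or less in every other library. The 8 markers of white and general adipocytes, all measured, summed to 29160 to 34200 FPKM in eWAT, 29180 to 33750 in iWAT, 19100 to 28200 in tAT and 13390 to 15420 in BAT. Fabp4 alone averaged 18340 FPKM in eWAT and 9943 in BAT, and the sums hide opposite differences. In tAT against eWAT 2 of the 8 (Pnpla2 and Plin1) passed as higher and 5 as lower, where 21.6% of all genes were higher and 36.0% lower. The part of cell makeup in the Agt differences was not tested, and in bulk tissue fewer cells of a type and less RNA per cell cannot be told apart.

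**Figure D1:**
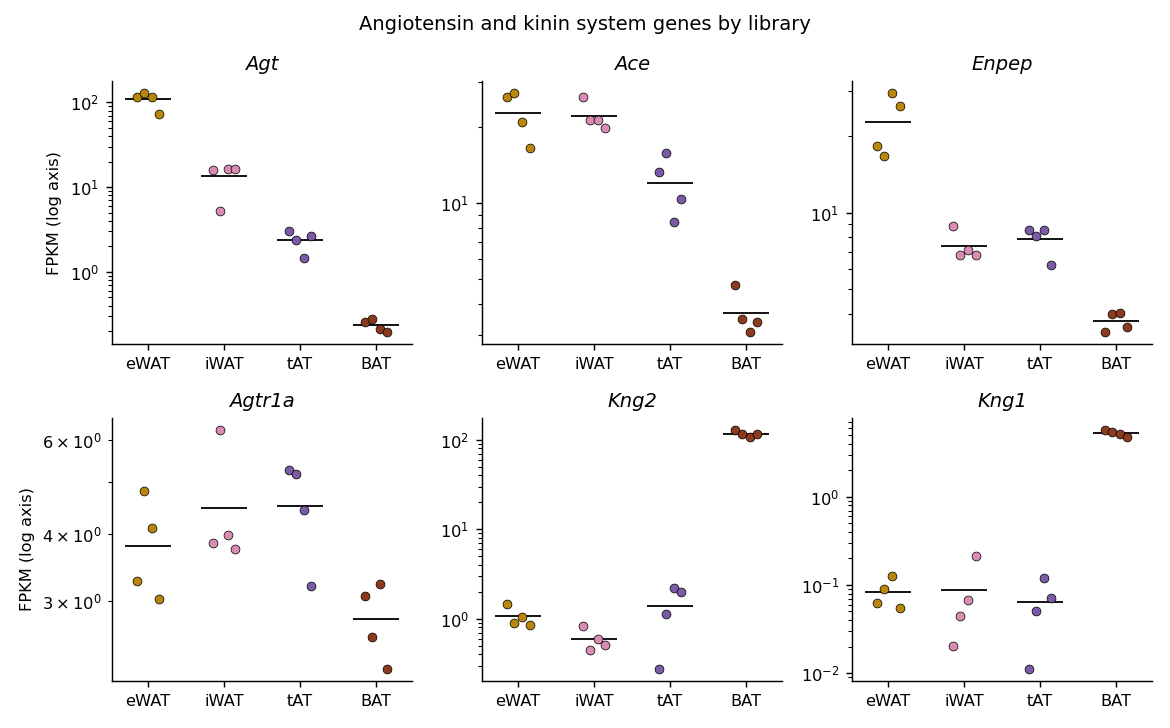
FPKM on a log axis (y) in each library of the 4 depots (x) for the 6 genes that passed the low-value filter; points are libraries and bars are means of 4. Agt falls from a mean of 109 FPKM in eWAT to 0.236 in BAT, and Kng2 stands at 117 FPKM in BAT against means of 1.40 or less in the other depots.

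Ace (ENSMUSG00000020681.13, chromosome 11, 105967945 to 105989964) was alike in the white depots, lower in thigh fat and lowest in brown fat. The eWAT libraries held 26.3, 27.2, 20.9 and 16.5 FPKM and the iWAT libraries 26.1, 21.2, 21.4 and 19.7. In tAT it held 13.3, 15.7, 8.44 and 10.4 FPKM and in BAT 4.76, 3.47, 3.09 and 3.402. Only eWAT and iWAT overlapped. Means were 22.7 ± 5.01, 22.1 ± 2.78, 11.96 ± 3.21 and 3.68 ± 0.741 FPKM (n = 4 each). The eWAT and iWAT levels differed by 0.02 (SE 0.18, adjusted p = 0.957), a value whose sign turned with the scaling (-0.03 with equal FPKM sums). Ace differed in tAT from iWAT by -0.86 (SE 0.18, adjusted p = 0.00181) and from eWAT by -0.88 (adjusted p = 0.000759). In BAT it differed from iWAT by -2.31 (SE 0.18, adjusted p = 1.35e-08) and from eWAT by -2.33 (adjusted p = 9.99e-09), well past the median gene. The tAT difference from BAT was 1.45 (SE 0.18, adjusted p = 4.81e-06), and it fell to 0.89 (adjusted p = 0.0267) once the muscle-rich libraries were left out.

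Endothelial cells are a known site of angiotensin-converting enzyme. The endothelial markers, 10 of 10 measured and none at 0, summed to 182 to 522 FPKM in eWAT, 229.9 to 357 in iWAT, 341 to 429.9 in tAT and 232 to 392 in BAT, and these ranges overlapped. Among them Cldn5 and Vwf passed as lower in BAT than in iWAT (-1.48, adjusted p = 5.58e-05, and -1.43, adjusted p = 3.37e-05) and than in eWAT, as Ace did. Kdr and Emcn passed as higher in BAT than in iWAT and eWAT, and Tek as higher than in eWAT. With median-of-ratios scaling 7 of the 10 were higher and 2 lower in BAT than in iWAT. The endothelial part in the Ace differences was not tested. Progenitor and fibroblast markers, 10 of 10 measured and none at 0, did fall with Ace, from 1334 to 1736 FPKM in eWAT and 1609 to 2432 in iWAT to 639 to 971 in tAT and 173 to 228 in BAT, and their part was not tested. The table gives 1 value for Ace, whose annotation holds 4 transcripts, so the long somatic form and the short germ-cell form, which starts inside the gene, were not separated.

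Enpep (ENSMUSG00000028024.13, chromosome 3, 129269175 to 129332720, minus strand) was highest in eWAT and alike in iWAT and tAT. The eWAT libraries held 18.3, 16.7, 29.6 and 26.3 FPKM. The iWAT libraries held 8.83, 6.77, 7.09 and 6.81 FPKM, the tAT libraries 8.56, 8.06, 8.52 and 6.19, and the BAT libraries 3.38, 3.99, 4.003 and 3.55. The eWAT and BAT values each stood clear of all others, and iWAT and tAT overlapped. Means were 22.7 ± 6.19 in eWAT, 7.37 ± 0.980 in iWAT, 7.83 ± 1.12 in tAT and 3.73 ± 0.318 in BAT (n = 4 each). Enpep was higher in eWAT than in iWAT by 1.47 (SE 0.16, adjusted p = 1.56e-05, 3.08-fold), and differed in tAT from eWAT by -1.40 (SE 0.16, adjusted p = 3.14e-06). Between tAT and iWAT the difference was 0.07 (SE 0.16, adjusted p = 0.741). Enpep differed in BAT from iWAT by -0.82 (adjusted p = 0.000197), but by -0.26 with median-of-ratios scaling, where it did not pass (adjusted p = 0.16). Its tAT difference from BAT was 0.89 (adjusted p = 0.000121), or 0.45 under that scaling (adjusted p = 0.0244). In BAT against eWAT it was -2.29 (adjusted p = 1.99e-09). Smooth muscle and pericyte markers, 10 of 10 measured and none at 0, summed to 178 to 307 FPKM in eWAT and 192 to 214 in BAT. These ranges overlapped, and the sums were 160.5 to 246 in iWAT and 217 to 486 in tAT. In BAT against eWAT 4 of these markers passed as higher and 3 as lower, so the sums hide opposite differences. Des alone held 237, 218, 20.4 and 141.5 FPKM in tAT 1 to 4. The mesothelial sums above were high where Enpep was high, and their part was not tested.

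Among the angiotensin receptors only Agtr1a (ENSMUSG00000049115.13, chromosome 13, 30336441 to 30382867) reached the level for testing, and it varied least across depots. The eWAT libraries held 3.27, 4.82, 4.10 and 3.03 FPKM and the iWAT libraries 3.85, 6.27, 3.98 and 3.76. The tAT libraries held 5.26, 5.17, 4.44 and 3.20 FPKM and the BAT libraries 3.07, 2.57, 3.22 and 2.24. Every pair of depots overlapped except BAT and iWAT. Means were 4.52 ± 0.952 in tAT, 4.46 ± 1.21 in iWAT, 3.804 ± 0.818 in eWAT and 2.78 ± 0.454 in BAT (n = 4 each). The tAT and iWAT levels differed by 0.02 (SE 0.17, adjusted p = 0.937; -0.04 with equal FPKM sums), and tAT and eWAT by 0.20 (SE 0.17, adjusted p = 0.325). Agtr1a differed in BAT from iWAT by -0.52 (adjusted p = 0.0106), close to the -0.54 of the median gene, and by 0.0021 with median-of-ratios scaling (adjusted p = 0.991). Its tAT difference from BAT of 0.54 (adjusted p = 0.00956) was 0.12 under that scaling (adjusted p = 0.538) and did not pass without the muscle-rich libraries (0.51, adjusted p = 0.173). Against eWAT the BAT level differed by -0.34 (adjusted p = 0.0768), or by 0.17 with that scaling (adjusted p = 0.356). Agtr2 (ENSMUSG00000068122.9, chromosome X, 21484544 to 21489164) was listed at 0 in 10 of 16 libraries, all BAT libraries among them, and did not exceed 0.0257 FPKM.

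Kng2 (ENSMUSG00000060459.12, chromosome 16, 22985854 to 23029482, minus strand) was the member with the largest depot difference after Agt, in the opposite direction. The BAT libraries held 129.7, 117, 107 and 115 FPKM. The tAT libraries held 0.275, 1.14, 2.22 and 1.98 FPKM, the eWAT libraries 1.45, 0.887, 1.05 and 0.857, and the iWAT libraries 0.825, 0.450, 0.592 and 0.508. BAT stood far above every other library, tAT overlapped both white depots, and the lowest eWAT library lay just above the highest iWAT library. Means were 117 ± 9.31 in BAT, 1.40 ± 0.883 in tAT, 1.06 ± 0.274 in eWAT and 0.594 ± 0.165 in iWAT (n = 4 each). BAT was higher than tAT by 5.71 (difference of tAT from BAT -5.71, SE 0.22, adjusted p = 7.52e-12, 83.7-fold), than eWAT by 5.85 (adjusted p = 1.89e-12, 110.5-fold) and than iWAT by 6.22 (adjusted p = 1.16e-12, 198-fold).

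Thigh fat did not differ by the test from either white depot in Kng2, with a difference of 0.51 from iWAT (SE 0.22, adjusted p = 0.0724), 0.14 from eWAT (adjusted p = 0.595) and, between the white depots, 0.37 for eWAT against iWAT (adjusted p = 0.263). These values turned on single thigh libraries. Without tAT 1, which had the lowest Kng2, the difference from iWAT was 0.79 (adjusted p = 0.00106) and from eWAT 0.42 (adjusted p = 0.0247), and without tAT 3 the difference from eWAT was -0.03. Without the muscle-rich libraries, which left tAT 3 alone in its depot, the differences were 1.02 (adjusted p = 0.00492) and 0.65 (adjusted p = 0.0208). In tAT 1 to 4 the brown adipocyte markers summed to 909.9, 929, 2620 and 1637 FPKM, so the thigh libraries with the lower and the higher Kng2 were also those with the lower and the higher brown marker sums. Skeletal muscle markers summed to 28050, 28190, 308 and 17860 FPKM in these libraries, so those with the lower Kng2 also had the higher muscle sums. Kng2 was 0.275 FPKM in tAT 1 and 1.14 in tAT 2, at nearly equal brown marker sums. The part of brown or muscle content was not tested. Ucp1, the uncoupling protein of brown fat, was 16.8-fold higher in BAT than in tAT, a smaller ratio than the 83.7-fold of Kng2.

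Kng1 (ENSMUSG00000022875.16, chromosome 16, 23057865 to 23082078), the other kininogen gene, passed the low-value filter only through its BAT libraries and so had to differ there. It stood at 5.79, 5.40, 5.21 and 4.78 FPKM in BAT, and at 0.0541 to 0.127 in eWAT, 0.0205 to 0.214 in iWAT and 0.0111 to 0.121 in tAT. The BAT mean of 5.29 ± 0.420 was 61.0 times the iWAT mean, 63.8 times the eWAT mean and 83.6 times the tAT mean. Between the other depots Kng1 did not pass (adjusted p = 0.815 for tAT against iWAT). Reads of the kininogen genes could be split between them: of the distinct 50-base windows of the protein-coding Kng1 transcripts 17.2% also occur in Kng2, and of 100-base windows 4.93%. Kng1 was 4.47, 4.60, 4.86 and 4.14% of Kng2 in BAT 1 to 4, and 3.61 to 5.45% in the tAT libraries. In the white depots the share was less even, at 4.28 to 12.03% in eWAT and 2.48 to 42.1% in iWAT. The Kng1 level is therefore uncertain, and how much of it is Kng2 sequence was not tested.

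The kininogen genes lie beside other genes of secreted liver proteins, and these did not share the BAT level. Liver markers, 8 of 8 measured, summed to 2.03 to 3.71 FPKM in BAT, 4.97 to 6.35 in tAT, 9.20 to 16.7 in eWAT and 13.2 to 33.2 in iWAT, with Ahsg and Fgb at 0 in BAT and Ttr, Fgb and Apob at 0 in tAT. Alb, the albumin gene, was 0.0366 to 0.0429 FPKM in the BAT libraries. The 3 liver markers tested did not all go 1 way. Alb and Serpina1a were higher in tAT than in BAT, where 58.6% of all genes were higher. Apoa2 was lower in tAT than in BAT, where 11.2% of all genes were lower. Of the genes in the order Ahsg, Fetub, Hrg, Kng2, Kng1, Eif4a2, Rfc4 and Adipoq on chromosome 16, Hrg was listed at 0 in BAT and Fetub averaged 0.169 ± 0.0805 FPKM there. On the other side Eif4a2, a translation factor, averaged 137 ± 6.97 FPKM in BAT against 154 ± 22.2 in iWAT, and Adipoq, the adiponectin gene, 666 ± 28.9 against 3572 ± 254.

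**Figure D2:**
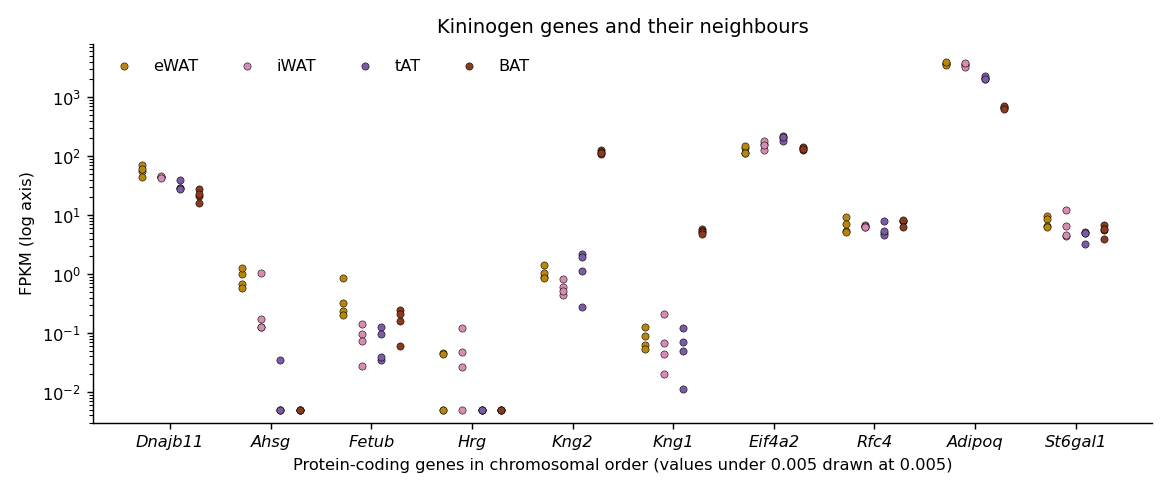
FPKM on a log axis (y) in each library for the kininogen genes and the protein-coding genes on either side, in chromosomal order (x); colours mark depots and values under 0.005 are drawn at 0.005. Kng2 and Kng1 stand highest in BAT, while Hrg lies at the bottom of the plot in BAT and Adipoq is lowest there at a mean of 666 FPKM.

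The bradykinin receptor genes were at the edge of detection in all depots. Bdkrb2 (ENSMUSG00000021070.5, chromosome 12, 105563226 to 105595237) ran from 0.1 to 0.215 FPKM in eWAT, from 0 to 0.215 in iWAT, from 0.0269 to 0.0985 in tAT and from 0.0229 to 0.0798 in BAT. Bdkrb1 (ENSMUSG00000041347.5, chromosome 12, 105603085 to 105605428) was listed at 0 in 9 of 16 libraries, stood at 0.0312 to 0.205 FPKM in the 4 eWAT libraries and did not exceed 0.0940 elsewhere. In exact two-sided permutation tests of 4 against 4 libraries, Bdkrb2 was lower in tAT and in BAT than in eWAT with p = 0.0286. No smaller p is possible with these group sizes, and the adjusted p was 0.257 over the 18 tests of Agtr2, Bdkrb1 and Bdkrb2. After adjustment 0 of the 18 tests passed, and 2, those of Bdkrb2, had an unadjusted p under 0.05. With 18 tests and a smallest p of 0.0286 the adjusted p could hardly pass whatever the levels. With median-of-ratios scaling 0 of the 18 had an unadjusted p under 0.05.

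**Figure D3:**
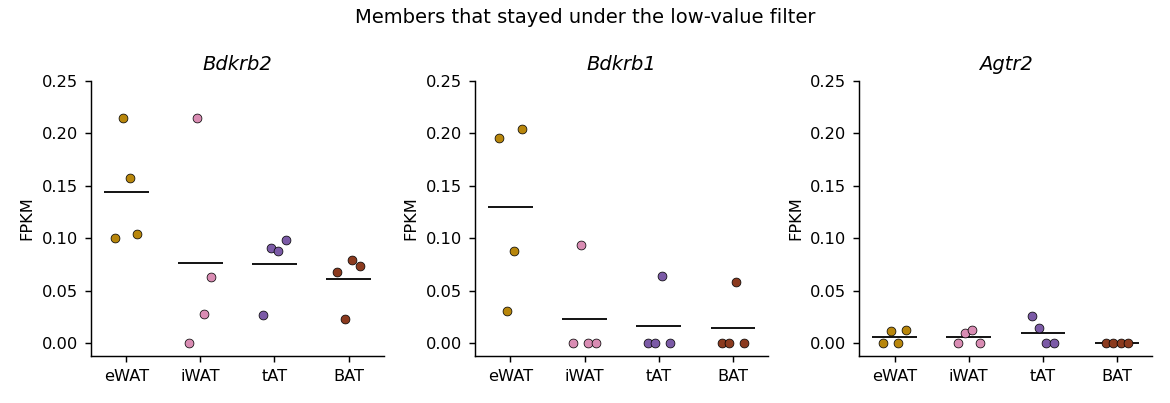
FPKM on a linear axis (y) in each library of the 4 depots (x) for Bdkrb2, Bdkrb1 and Agtr2, which stayed under the low-value filter; points are libraries and bars are means of 4. No library exceeds 0.215 FPKM.

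Set side by side, of the 6 genes that passed the filter (Agt, Ace, Enpep, Agtr1a, Kng2 and Kng1), 0 were higher and 2 lower in tAT than in iWAT. Of all tested genes 39.9% passed in that comparison, 10.5% higher and 29.4% lower. Against eWAT 0 were higher and 3 lower in tAT, where 57.7% of all genes passed, 21.6% higher and 36.0% lower. Against BAT 4 were higher and 2 lower in tAT, where 69.8% of all genes passed, 58.6% higher and 11.2% lower, and with median-of-ratios scaling 3 were higher. That count of 6 was 3 of 5 (2 higher, 1 lower) without the muscle-rich libraries. In eWAT 2 were higher and 0 lower than in iWAT, where 14.0% of all genes passed, 8.48% higher and 5.52% lower. In BAT 2 were higher and 4 lower than in iWAT, where 74.3% of all genes passed, 12.7% higher and 61.5% lower, and with median-of-ratios scaling 2 were higher and 2 lower. Compared with eWAT 2 were higher and 3 lower in BAT, where 74.2% of all genes passed, 15.2% higher and 59.0% lower. In the comparisons with BAT most genes passed, so these counts are no result about the members as a group. Kng1 was 1 of the 2 genes higher in BAT in each of these comparisons. It passed the filter only through its BAT libraries and had to differ there, so its calls are no support. At an unadjusted p under 0.05 the limma counts were the same, except that 1 gene, Kng2, was then higher in tAT than in iWAT. Comparisons that have a depot in common use the same libraries.

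**Figure D4:**
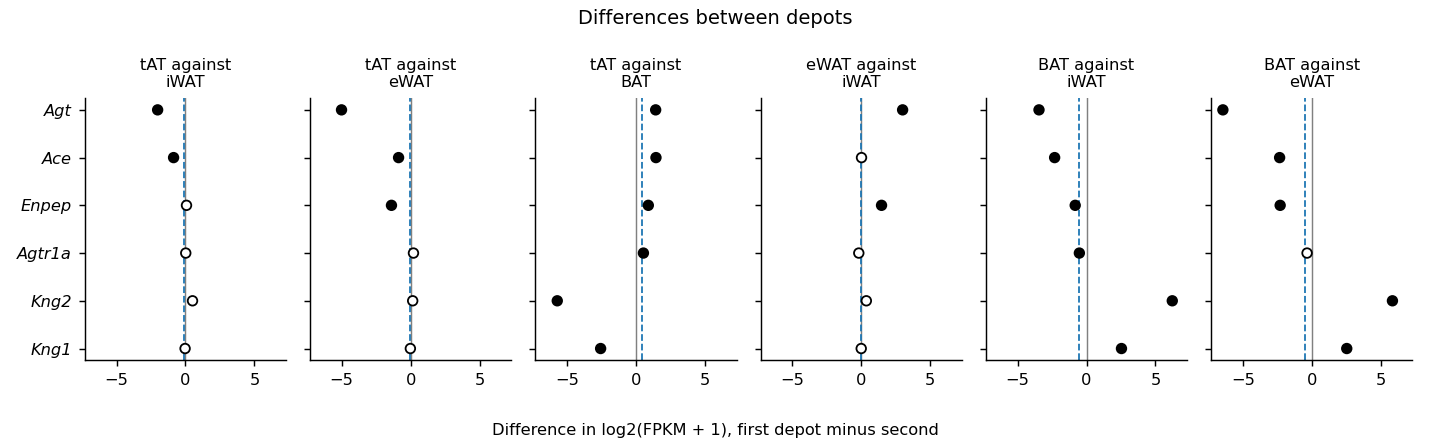
Difference in log2(FPKM + 1) between depots (x, first named depot minus second) for the 6 genes that passed the filter (y); bars are standard errors, often smaller than the points, filled points passed at an adjusted p of 0.05, and the dashed line is the median of all tested genes. Agt reaches -6.44 in BAT against eWAT and Kng2 6.22 in BAT against iWAT, while Agtr1a lies near the dashed line in the comparisons with BAT.

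Other enzymes that make or remove angiotensin peptides followed Agt and Ace in part. Ren1, the renin gene, was listed at 0 in every iWAT, tAT and BAT library and stood at 0, 0.0509, 0.0480 and 0.0556 FPKM in eWAT. Of 14 genes of angiotensin processing 11 were tested. Compared with iWAT 0 were higher and 7 lower in tAT (median -0.54, against -0.11 for all genes, of which 29.4% were lower; 0 and 4 without the muscle-rich libraries). Compared with eWAT 1 was higher and 9 lower in tAT (median -0.56, against -0.08 for all genes, of which 36.0% were lower). Compared with BAT 8 were higher and 0 lower in tAT (median 0.50, against 0.44 for all genes, of which 58.6% were higher); this was 5 and 2 with median-of-ratios scaling, and 3 and 0 without the muscle-rich libraries. In these comparisons the counts of 0 were also 0 at an unadjusted p under 0.05 in limma. Mcpt4 and Cma1, mast cell chymases that can form angiotensin II, were highest in iWAT. Mcpt4 stood at 14.5 ± 1.41 FPKM in iWAT, 8.01 ± 1.64 in eWAT, 2.69 ± 0.487 in tAT and 1.22 ± 0.153 in BAT, and differed in tAT from iWAT by -2.08 (adjusted p = 1.35e-07). Cma1 differed there by -1.88 (adjusted p = 4.07e-06). The mast cell list, which holds Cma1 and Mcpt4 and was measured for 8 of 8 genes, summed to 41.4 to 55.0 FPKM in iWAT, 21.0 to 34.9 in eWAT, 10.3 to 15.7 in tAT and 8.51 to 9.65 in BAT. The sums hide opposite differences. Of the 6 tested, 1 (Hdc) was higher and 4 lower in BAT than in iWAT, where 12.7% of all genes were higher and 61.5% lower. Compared with eWAT 2 (Hdc and Kit) were higher and 4 lower in BAT, where 15.2% of all genes were higher and 59.0% lower.

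Peptidases that take angiotensin peptides further apart did not all share that order. Anpep, which trims angiotensin III, stood at 23.2 ± 5.20 FPKM in eWAT, 10.3 ± 4.499 in iWAT, 6.95 ± 3.25 in tAT and 2.04 ± 1.57 in BAT, and differed in tAT from eWAT by -1.67 (adjusted p = 0.0008). Its tAT difference from BAT of 1.42 (adjusted p = 0.00187) was 0.55 without the muscle-rich libraries (adjusted p = 0.421). Prcp, a carboxypeptidase that removes angiotensin II, was higher in tAT than in BAT by 1.12 (adjusted p = 4.77e-06; 0.71 with median-of-ratios scaling). Ctsd, a lysosomal protease able to cut angiotensinogen, differed in tAT from eWAT by -1.52 (adjusted p = 4.37e-06). Mme, or neprilysin, which breaks down both angiotensin I and bradykinin and is counted in both lists, went the other way: it stood at 13.0 ± 3.55 FPKM in eWAT against 33.4 ± 7.25 in iWAT, 31.9 ± 7.11 in tAT and 32.3 ± 5.36 in BAT. Mme was higher in tAT than in eWAT by 1.24 (adjusted p = 0.000114), a call lost with the muscle-rich libraries left out (0.78, adjusted p = 0.0833), and in BAT than in eWAT by 1.27 (adjusted p = 3.66e-05).

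Of 7 genes of angiotensin receptors and their partners 4 were tested. Agtr1b, the second rodent type 1 receptor, was listed at 0 in every eWAT, tAT and BAT library, Mrgprd in all libraries, and Mas1, the receptor for angiotensin 1-7, averaged 0.0699 to 0.173 FPKM. In tAT 1 was higher and 1 lower than in iWAT (median 0.08, where 39.9% of all genes passed), and 1 was higher and 1 lower than in eWAT (median -0.10, where 57.7% of all genes passed). Against BAT 3 of the 4 were higher and 0 lower (median 0.54), near the 58.6% of all genes that were higher and their median of 0.44, and 0 and 0 passed with median-of-ratios scaling. Arhgef1, a RhoA activator that acts downstream of the type 1 receptor, was among the 3, at 0.66 (adjusted p = 0.00366), or 0.13 with that scaling (adjusted p = 0.515) and 0.46 without the muscle-rich libraries (adjusted p = 0.255). Mtus1, whose product binds the type 2 receptor, was highest in thigh fat at 72.3 ± 7.02 FPKM, against 55.6 ± 6.57 in BAT, 49.1 ± 6.14 in iWAT and 33.1 ± 6.20 in eWAT. It was higher in tAT than in iWAT by 0.55 (adjusted p = 0.00376), likewise a call lost without those libraries (0.42, adjusted p = 0.189), and than in eWAT by 1.11 (adjusted p = 4.48e-06). Atp6ap2, the prorenin receptor and a partner of the proton pump, differed in tAT from iWAT by -0.44 (adjusted p = 0.000291) and from eWAT by -0.75 (adjusted p = 7.79e-07). Its tAT difference from BAT of 0.59 (adjusted p = 3.41e-06) was 0.09 with median-of-ratios scaling (adjusted p = 0.343).

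Among genes that form, protect or break down kinins, 7 of 12 were tested, and the kallikrein genes were not among them. Klk1 and Klkb1, tissue and plasma kallikrein, averaged no more than 0.0832 and 0.0952 FPKM in any depot, and F12, which starts the plasma pathway, no more than 0.0875. In tAT 1 was higher and 3 lower than in iWAT (median -0.12, against -0.11 for all genes, of which 10.5% were higher and 29.4% lower; 0 and 1 of 6 without the muscle-rich libraries), and 2 were higher and 3 lower than in eWAT (median 0.05, against -0.08 for all genes, of which 21.6% were higher and 36.0% lower; 0 and 1). Against BAT 3 were higher and 1 lower (median 0.27, against 0.44 for all genes, of which 58.6% were higher and 11.2% lower; 3 and 3 with median-of-ratios scaling). In BAT 1 was higher and 5 lower than in iWAT (median -0.78, against -0.54 for all genes, of which 61.5% were lower; 2 and 4 with median-of-ratios scaling). Compared with eWAT 2 were higher and 5 lower in BAT (median -0.81, against -0.52 for all genes, of which 59.0% were lower; 2 and 3 with that scaling). Cpn2, described below, is counted as passing in each of these comparisons. It passed the low-value filter only through tAT and BAT, so its calls in these counts are no support. Xpnpep2 passed that filter only through eWAT and iWAT libraries. Its calls as lower in tAT than in iWAT and eWAT, and in BAT than in eWAT, are no support either. Ece1, endothelin-converting enzyme, which also cuts bradykinin, stood at 122 ± 33.8 FPKM in tAT and 31.8 ± 11.4 in BAT, a difference of 1.93 (adjusted p = 2.48e-05).

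Cpn2, the non-catalytic subunit of carboxypeptidase N, an enzyme that trims kinins in plasma, was highest in brown fat and next in thigh fat. It stood at 22.6, 25.9, 20.9 and 22.8 FPKM in BAT and at 2.41, 2.04, 8.30 and 5.46 in tAT. In iWAT it stood at 0.149, 0.115, 0.157 and 0.113 FPKM, and in eWAT at 0.00839 to 0.0241. No depots overlapped, and tAT 3 and 4 held more than tAT 1 and 2. Cpn2 reached 1 FPKM only in the 8 tAT and BAT libraries, so it passed the low-value filter through the depots where it was high and had to differ, and its tests are no support. Cpn2 was higher in tAT than in iWAT by 2.14 (SE 0.25, adjusted p = 2.11e-05) and than in eWAT by 2.30 (adjusted p = 2.48e-06), and differed in tAT from BAT by -2.26 (adjusted p = 1.27e-06). It fell under the low-value filter once the muscle-rich libraries were left out. Cpn1, the catalytic subunit, was listed at 0 in every tAT and BAT library and averaged 0.0606 FPKM in eWAT. Serping1, the inhibitor of plasma kallikrein, ran the opposite way, at 349 ± 78.0 FPKM in eWAT, 272 ± 30.6 in iWAT, 105.5 ± 30.6 in tAT and 15.6 ± 1.76 in BAT. It differed in tAT from iWAT by -1.40 (adjusted p = 6.34e-05) and in BAT from iWAT by -4.03 (adjusted p = 3.47e-11). Xpnpep2, an aminopeptidase that removes the first residue of bradykinin, stood at 0.393 ± 0.133 FPKM in tAT, 1.01 ± 0.435 in iWAT and 1.14 ± 0.360 in eWAT. It reached 1 FPKM only in eWAT 1, 2 and 3 and iWAT 1 and 2. It thus passed the low-value filter through depots where it was high, and its tests are no support. It differed in tAT from iWAT by -0.51 (adjusted p = 0.0173) and from eWAT by -0.61 (adjusted p = 0.00374). Neither passed once the muscle-rich libraries were left out, although the differences were no smaller (-0.60 and -0.70). The difference from iWAT also did not pass with no filter (adjusted p = 0.137), without iWAT 1 (-0.40, adjusted p = 0.0592) or without iWAT 2 (-0.45, adjusted p = 0.0534).

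**Figure D5:**
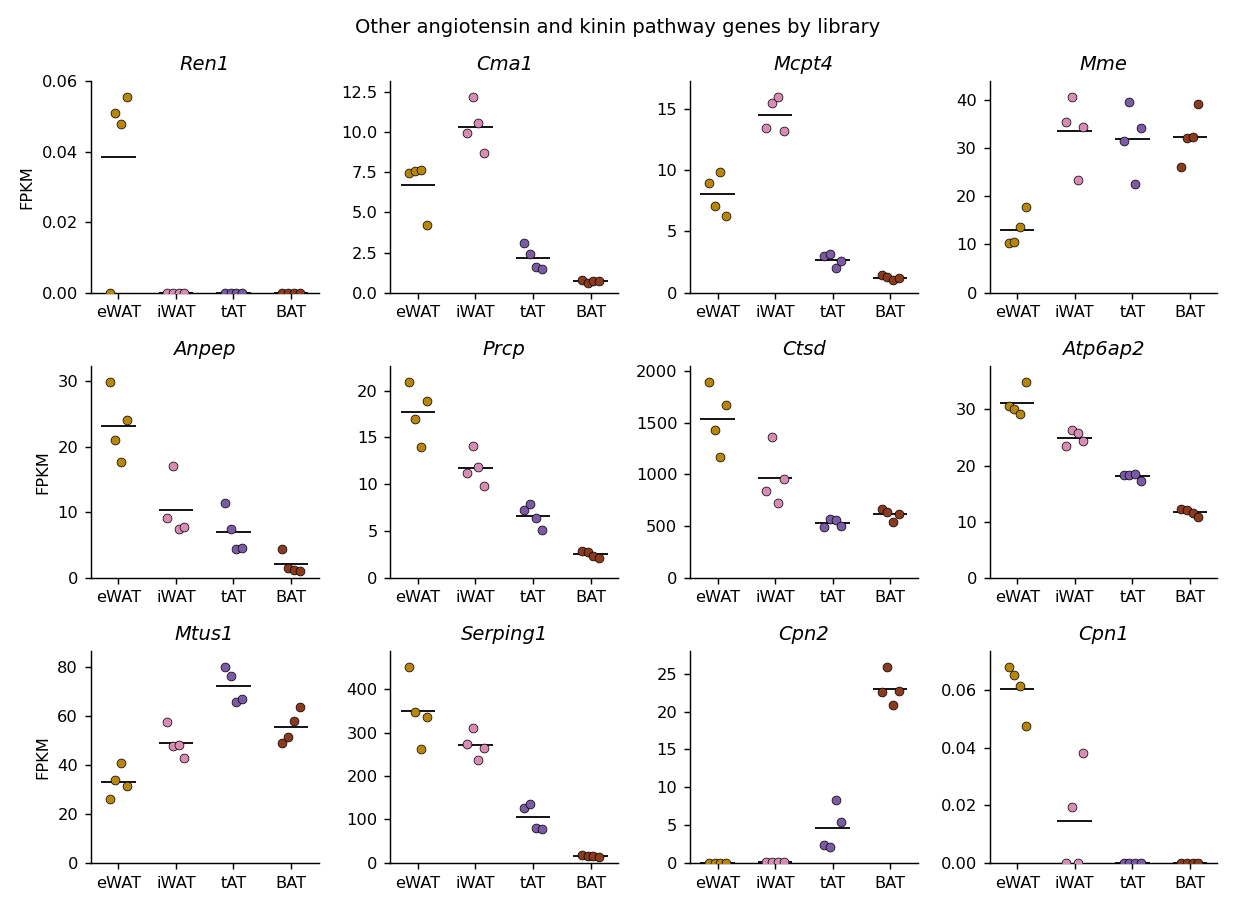
FPKM on linear axes (y) in each library of the 4 depots (x) for 12 other genes of the pathways; points are libraries and bars are means of 4. Cpn2 stands highest in BAT and Serping1 lowest there, at 349 FPKM in eWAT and 15.6 in BAT.

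Profiles were also compared over the 16 libraries, each brought to mean 0 and SD 1, by the mean absolute difference between them (0 for an identical shape). Among 9729 other genes with a depot mean of at least 5 FPKM, the profile nearest to that of Kng2 was Lgr6, a receptor for R-spondins, at 0.0767, followed by Kng1 at 0.103 and Gnas, the stimulatory G protein alpha subunit, at 0.107. Lgr6 stood at 27.5 FPKM in BAT and 0.409 in tAT. Nearest to Agt were AW822252 at 0.121, Sult1e1, the estrogen sulfotransferase, at 0.141 and Spint2, a serine protease inhibitor, at 0.142. Nearest to Ace were Dnm1 at 0.101, Ifi204 at 0.130 and Cbr2 at 0.131, and nearest to Enpep were Penk, the enkephalin precursor, at 0.263, Gstm1 at 0.281 and Gstm3 at 0.288. Nearest to Kng1, beside Kng2, were Slmo2 at 0.0969 and Gnas at 0.0992. Agtr1a had no close neighbour, with Mylip at 0.422, Supt20 at 0.431 and Gcc2 at 0.437. Between members the distance was 0.354 for Agt and Enpep, 0.509 for Agt and Ace and 1.47 for Agt and Kng2. These distances describe shape only, and all points share the same 16 libraries.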

How the data were processed

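Libraries were made with a TruSeq RNA kit from Trizol-extracted frozen tissue, per the labels' protocols. The authors deposited 1 table of FPKM. Per the submitters' processing notes they used TopHat, TopHat2 2.0.9, Cufflinks 2.1.1 and mm10. Settings, annotation and use of strand were not given in the sources used here. Because FPKM is relative, a library with abundant transcripts shows lower values for the rest, and a listed 0 can be a failed estimate. There were no counts. Depth was gauged from low values of genes with 1 GENCODE vM21 transcript over 2000 bases, of which 84.6 to 91.7% lay within 0.15 of a whole multiple of the best step. Such fragment estimates carry counting error at least.

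Depots and replicate numbers came from the titles. A fit of limma 3.58.1 in R 4.3.3 (lmFit, then eBayes with trend=TRUE and robust=TRUE) took all 16 libraries together on log2(FPKM + 1), with Benjamini-Hochberg adjustment over the 14991 genes at 1 FPKM or more in 4 libraries or more. The fit was tested on simulated data. Low genes had exact permutation tests (scipy 1.17.1). The members, the pathway and marker lists and the libraries called muscle-rich (tAT 1, 2 and 4, BAT 3 and 4) were chosen with earlier results of these data known. Named by rule were the 9 members, up to 2 passing genes each way per pathway list in thigh comparisons (1 in others), and the 3 profiles nearest to each tested member. Genes at or near 0 and the neighbours on chromosome 16 were named after their values were seen. Alternatives: pseudocount 0.1, no filter or one at 5 FPKM, median-of-ratios scaling, equal FPKM sums, the 2 depots fitted alone, the replicate number as a block, each library left out in turn and, chosen after seeing the data, leaving out the muscle-rich libraries. Gene spans are GENCODE vM21 on mm10. The values of 1 gene of the pathway lists are not reported here.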

Additional observations from a re-analysis of the deposited data

Results flagged for a closer look

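A library was looked at again where its gap to the nearest of the 4 libraries of its depot took up most of the depot's range (Dixon's test at 95%); 7 of 36 groups of a gene in a depot met this, and chance gives about 1 in 20. That rate does not hold for the 3 groups of Bdkrb1, where 3 libraries at 0 and 1 above 0 meet the rule by construction. In iWAT 2, Agt was 5.27 FPKM against 16.2 to 16.4 in the other inguinal libraries. In the same library Agtr1a was 6.27 FPKM against 3.76 to 3.98, and Bdkrb1 was 0.0940 against 0 in the others. The macrophage markers summed to 427 FPKM in iWAT 2 against 209 to 269 in the others and the progenitor markers to 2432 against 1609 to 2166; their part was not tested. Without iWAT 2 the calls of Agt kept their direction and side of the threshold in all 6 depot pairs, and Agtr1a passed in BAT against eWAT (adjusted p = 0.0457).

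Enpep was 8.83 FPKM in iWAT 1 against 6.77 to 7.09 in the other inguinal libraries. Bdkrb1 was 0.0644 FPKM in tAT 3 and 0.0587 in BAT 3, each against 0 in the other libraries of the depot, and Bdkrb2 was 0.0269 FPKM in tAT 1 against 0.0876 to 0.0985, all values at the edge of detection.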

How the results depend on the processing

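The number of members that passed stayed within 1.5 times its value in every comparison and alternative run, except that 3 of 5 passed in tAT against BAT without the muscle-rich libraries (2 higher, 1 lower). Kng1 left the fit when any BAT library was left out. With each library left out in turn, 2 to 3 members passed in tAT against iWAT, 3 to 4 in tAT against eWAT, 5 to 6 in tAT against BAT and in BAT against iWAT, 2 in eWAT against iWAT, and 4 to 6 in BAT against eWAT. Of the differences of members and named genes, 18 values changed sign, and of these Agtr1a in BAT against iWAT alone had passed. Left-out libraries put Ace in eWAT against iWAT between -0.0726 and 0.1571, Agtr1a in tAT against iWAT between -0.0468 and 0.1648, and Kng2 in tAT against eWAT between -0.0284 (without tAT 3) and 0.417 (without tAT 1). They put Kng1 between -0.0583 and 0.0252 in tAT against iWAT and between -0.0314 and 0.0521 in eWAT against iWAT, where a pseudocount of 0.1 gave 0.055. With equal FPKM sums Ace in eWAT against iWAT was -0.0322 and Agtr1a in tAT against iWAT -0.035. With median-of-ratios scaling Agtr1a was 0.0021 in BAT against iWAT and 0.1662 in BAT against eWAT. The cause was not tested. Anpep in eWAT against iWAT (1.14, adjusted p = 0.0387) did not pass with equal FPKM sums (1.09, adjusted p = 0.0592), a pseudocount of 0.1 (adjusted p = 0.0696), no filter (adjusted p = 0.222) or 6 of the fits that left out a library of these depots (1.01 to 1.18, adjusted p = 0.0703 to 0.131). Same-numbered libraries had correlations of deviations from -0.274 to 0.23, over 0.1 in 4 of 24 pairs. Skeletal muscle transcripts, which differed between the libraries of tAT and of BAT, enter these deviations too. Whether same-numbered libraries share a mouse therefore cannot be told from them. With the replicate block the same numbers of members passed (2, 3, 6, 2 and 6) except 6 in BAT against eWAT, where Agtr1a passed (adjusted p = 0.0295). No low member passed by permutation in the main run, with a pseudocount of 0.1 or with median-of-ratios scaling, the only settings tried. With these group sizes and this number of tests the adjusted p could hardly pass whatever the levels. FPKM without counts limits what can be said below about 0.2 FPKM.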

Other observations

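Of 10 genes of vascular tone that stand beside the angiotensin and kinin pathways 7 were tested. In tAT 0 were higher, also at an unadjusted p under 0.05 in limma, and 2 lower than in iWAT, where 39.9% of all genes passed (median 0.12, against -0.11 for all genes). Compared with eWAT 2 were higher and 1 lower, where 57.7% of all genes passed (median 0.26, against -0.08). Compared with BAT 6 were higher and 0 lower, where 69.8% of all genes passed (median 0.66, against 0.44). That was 3 and 1 with median-of-ratios scaling, and 3 and 0 without the muscle-rich libraries. These shares are no result about the list as a group. Npr3, the clearance receptor for natriuretic peptides, stood at 289 ± 30.2 FPKM in iWAT, 229 ± 46.6 in eWAT, 131 ± 36.1 in tAT and 26.5 ± 5.12 in BAT, and differed in tAT from iWAT by -1.18 (adjusted p = 0.00036) and from eWAT by -0.83 (adjusted p = 0.00236). Ednra, an endothelin receptor, stood at 5.61 ± 0.859 FPKM in tAT and 5.08 ± 0.774 in iWAT against 2.27 ± 0.310 in eWAT and 1.04 ± 0.186 in BAT, and was higher in tAT than in eWAT by 1.01 (adjusted p = 5.2e-06). Edn1, encoding endothelin 1, differed in tAT from iWAT by -0.36 (adjusted p = 0.0353), a call that did not hold: in a fit of those depots alone the same difference had an adjusted p of 0.0888, without the muscle-rich libraries it was -0.40 (adjusted p = 0.242), and with median-of-ratios scaling -0.28 (adjusted p = 0.0924). It was also lost with no filter (adjusted p = 0.263) and without iWAT 2, iWAT 4, tAT 1, tAT 3 or tAT 4, one at a time (adjusted p = 0.0592 to 0.125). Nr3c2, the mineralocorticoid receptor gene, was higher in tAT than in eWAT by 0.71 (adjusted p = 8.02e-05). Npr1, a receptor for natriuretic peptides, was higher in BAT than in iWAT by 0.61 (adjusted p = 0.0377), or by 1.25 with median-of-ratios scaling (adjusted p = 0.000235), and did not pass with no filter (adjusted p = 0.177) or without iWAT 2, 3 or 4 or BAT 1 or 2, one at a time (0.46 to 0.64, adjusted p = 0.0537 to 0.122).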
